A study of Saccharomyces cerevisiae with 10 samples.

Results

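The 9 cyclin genes of budding yeast that drive the main cell cycle kinase were examined: the G1 cyclin genes CLN1 (YMR199W), CLN2 (YPL256C) and CLN3 (YAL040C), and the B-type cyclin genes CLB1 (YGR108W), CLB2 (YPR119W), CLB3 (YDL155W), CLB4 (YLR210W), CLB5 (YPR120C) and CLB6 (YGR109C). They were taken by systematic name, and all 9 were found among the 5822 genes measured, each with a value on all 10 arrays. Saccharomyces cerevisiae of 2 strains, wild type and a strain labelled as deleted for PPT1 (delPPT1), was sampled before a hypo-osmotic shock and at 4 times after it. The wild type was sampled at 0, 7, 16, 30 and 60 min and the strain labelled delPPT1 at 0, 7, 15, 30 and 60 min, with 1 array for each. The strain background, the deletion allele, the growth medium and the size of the shift are not stated in the labels. The Ppt1 protein is a phosphatase with the chaperone Hsp90 among its substrates.

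Cyclins are the regulatory subunits of Cdc28, the cyclin-dependent kinase of budding yeast, and their transcripts come and go in waves through the division cycle. Cln3 acts first and releases the transcription factors SBF and MBF, which switch on CLN1, CLN2, CLB5 and CLB6 in late G1. Cln1 and Cln2 drive budding, Clb5 and Clb6 start DNA replication, Clb3 and Clb4 act in spindle formation, and Clb1 and Clb2 drive mitosis under the factors Mcm1, Fkh2 and Ndd1. Hyper-osmotic stress is known to delay the cycle and to lower cyclin transcripts for a time.

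Each value is a log2 ratio of a sample to a reference, centred on the median of its array. The direction of the ratio is likely but not stated, and every direction below turns with it. A ratio to a reference shows how 1 gene varies across arrays and not which of 2 genes is the more abundant. In a culture, less transcript per cell and fewer cells in the phase that makes it cannot be told apart. No culture left unshifted was followed, so the effects of the shift, of time and of handling cannot be told apart. The arrays held 5440 to 5807 genes with a value, and pairs of arrays correlated with r from 0.366 to 0.829 across genes. PPT1 itself was not lower on the arrays labelled delPPT1 (fitted difference 0.19 ± 0.13, limma adjusted p = 0.417, higher in 3 of 5 matched pairs), so it did not bear out the label. The log2 ratios of all genes spread more widely on the 2 arrays of 0 min (SD 0.52 and 0.50) than on the 8 later ones (0.35 to 0.45). Median and MAD scaling, which gives all arrays 1 spread, was among the alternatives. The median of 6 a-cell markers lay between 0.39 and 1.31 on the 10 arrays and that of 4 alpha-cell markers between -0.50 and 0.04.

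Of the 9 cyclins 7 changed over time. In both strains 5 of the 9 were highest at the same time and 8 of the 9 were lowest at the same time, beside 38.3% and 32.8% of genes with complete values. CLB2 had risen by 7 min, CLN3 and CLB6 were highest at 15-16 min, CLN1 and CLN2 were highest at 30 min, and CLB2 was highest at 60 min. CLB1 was lower than before the shift at 30 min, its lowest time in both strains. CLB3 passed no test, and neither did CLB4.

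**Figure D1:**
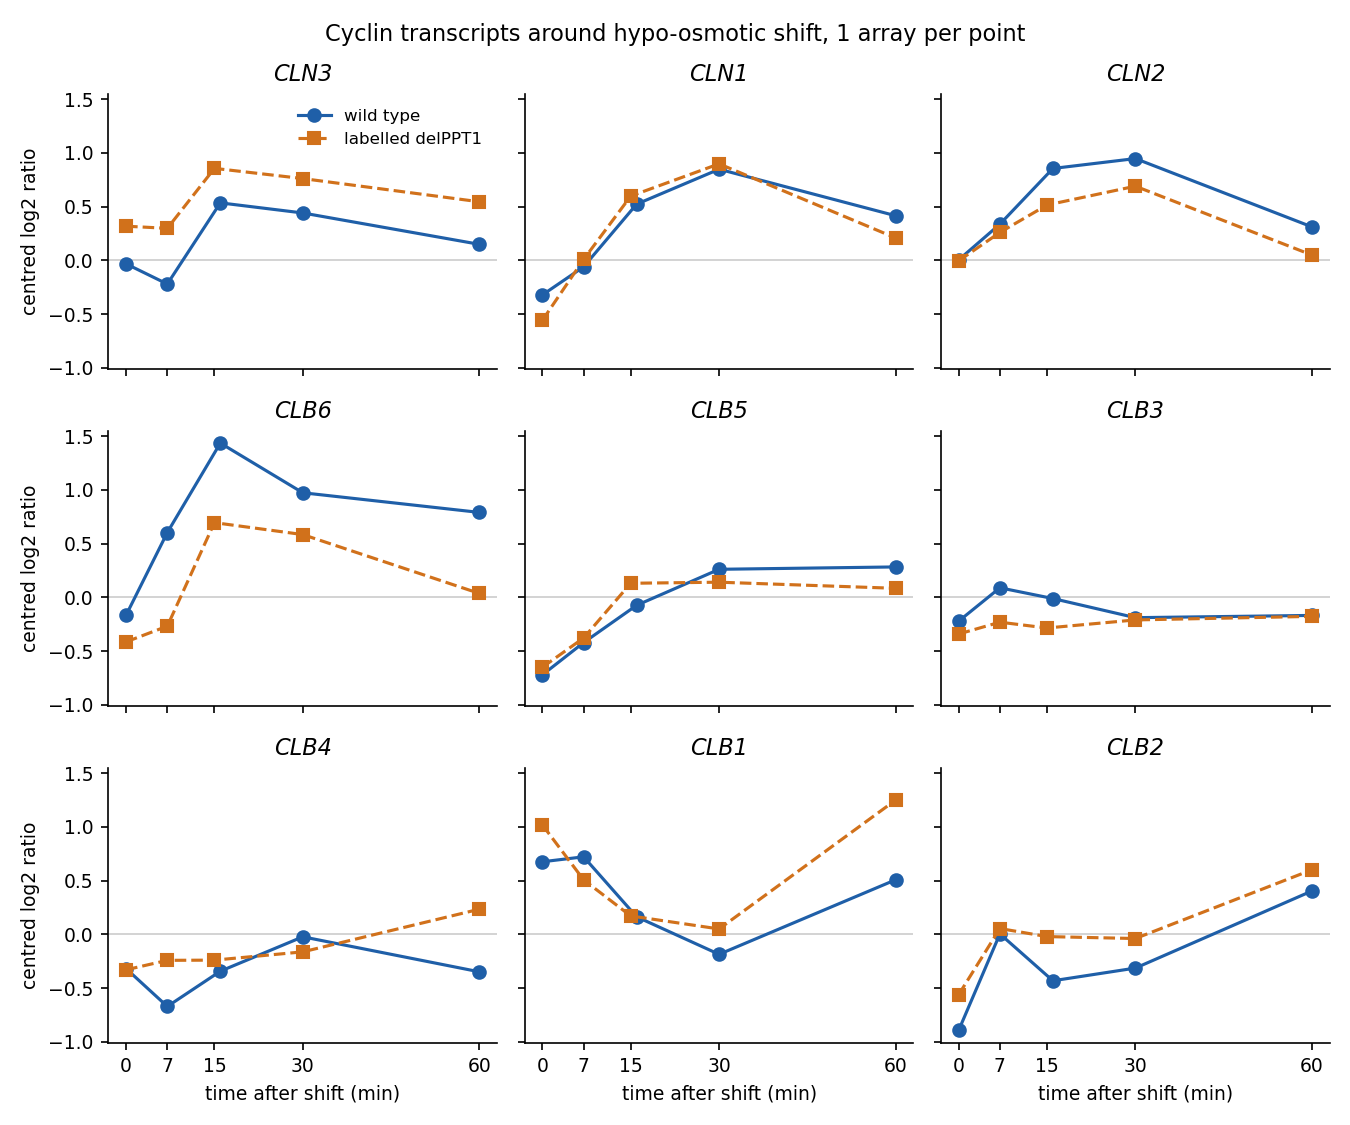
Centred log2 ratio of each cyclin gene (vertical axis) against minutes after the shift (horizontal axis), with 1 array per point, wild type as blue circles and the strain labelled delPPT1 as orange squares. CLN1 and CLN2 are highest at 30 min in both strains, CLB6 and CLN3 at 15-16 min and CLB2 at 60 min, and CLB1 is lowest at 30 min.

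Changes over time were fitted across all genes with limma, with time point and strain as additive terms, so that the 2 strains served as the 2 arrays of a time, and the 15 min and 16 min arrays as 1 time point. Genes with an adjusted p (Benjamini-Hochberg over all genes) below 0.05 passed. Of the 9 cyclins, 7 passed limma's F test over the time terms, against 8.98% of all genes tested: all 3 G1 cyclins and CLB1, CLB2, CLB5 and CLB6 of the 6 B-type cyclins. The F statistic of CLN1 (28, adjusted p = 0.00145) was higher than that of 98.3% of all genes and ranked 101 among them, and that of CLB2 (22.8, adjusted p = 0.00278) ranked 124. CLB6 followed (19.8, adjusted p = 0.00438), then CLB5 (16.4, adjusted p = 0.00729), CLN2 (13.6, adjusted p = 0.0127), CLN3 (10.8, adjusted p = 0.0233) and CLB1 (8.84, adjusted p = 0.0362). CLB4 (1.72, adjusted p = 0.42) and CLB3 (0.662, adjusted p = 0.748) lay at or below the middle of all genes. The calls of CLN1, CLB2 and CLB6 did not rest on any 1 array. The call of CLN2 was lost without the wild type 0 min or 30 min array and that of CLB5 without either 0 min array (adjusted p 0.0513 to 0.063 in these fits). The call of CLB1 was lost without any array of 0, 15-16 or 30 min (adjusted p 0.0552 to 0.125) and with quantile normalization (adjusted p = 0.0538). That of CLN3 was lost in 7 of the 10 fits that left out 1 array, all but those without either 60 min array or the 15 min array labelled delPPT1 (adjusted p 0.0509 to 0.0887).

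Against 0 min, 1, 5, 6 and 4 of the 9 cyclins were higher at 7, 15-16, 30 and 60 min, where 0.447%, 1.56%, 3.56% and 3.97% of all genes tested were higher. At 30 min 1 of 9 was lower, against 7.8% of all genes. At 7, 15-16 and 60 min 0 of 9 were lower, against 2.58%, 5.62% and 8.38%. At an unadjusted p under 0.05 the 4 times held 4, 7, 7 and 4 of the 9 cyclins, and 16.2%, 22.3%, 27.9% and 27.7% of all genes. The median change of the 9 cyclins was 0.29, 0.55, 0.55 and 0.27 on the log2 scale at the 4 times, beside medians of all genes between -0.02 and -0.0045. The balance over all genes depended on scaling: of the genes called at 60 min, 32.1% were higher with centred arrays and 49.9% without centring, and at 30 min 31.3% and 44.8%. With quantile normalization the share of calls that were higher was 32.1% at 7 min against 14.8% in the centred fit, 35.1% against 21.8% at 15-16 min, 47.1% against 31.3% at 30 min and 45.0% against 32.1% at 60 min. The fitted changes over both strains are plotted with their SE.

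**Figure D2:**
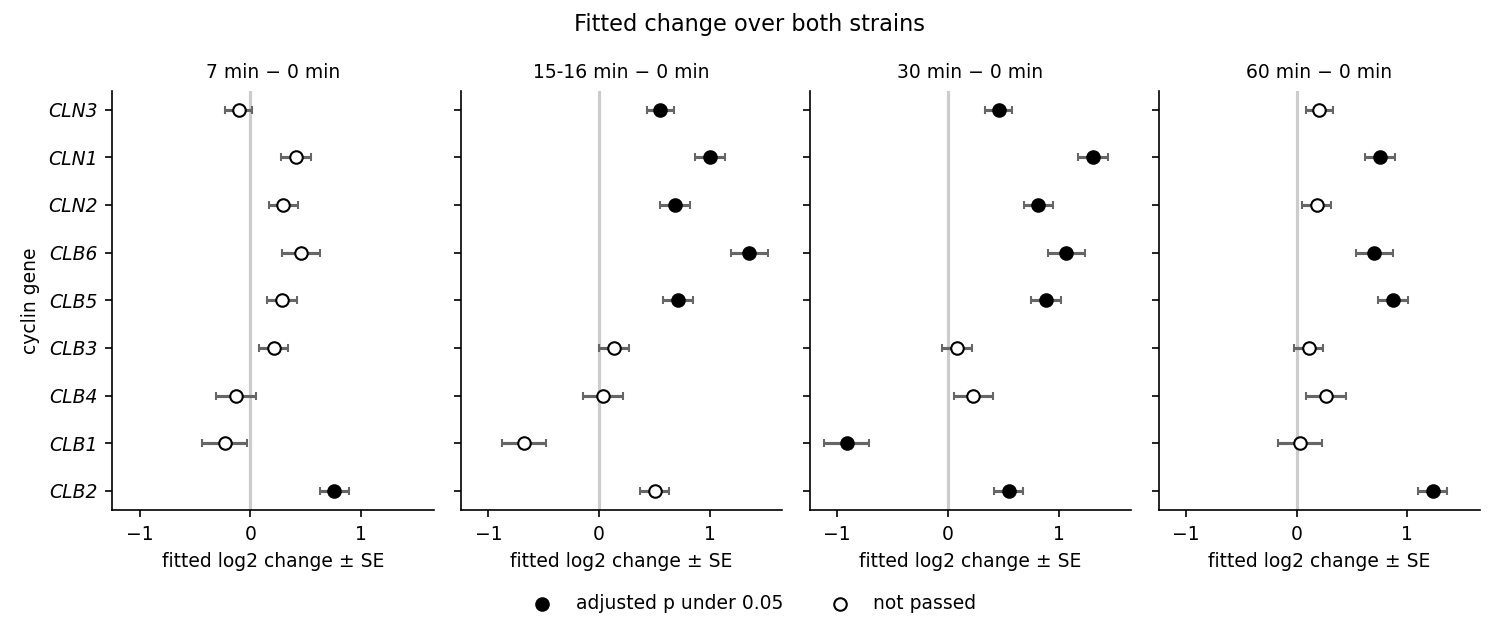
Fitted log2 change against 0 min over both strains, with its standard error as a bar (horizontal axis), for each cyclin gene (vertical axis), in 1 panel per time. Filled points passed at an adjusted p under 0.05: CLB2 at 7 min, 5 genes at 15-16 min, 7 at 30 min with CLB1 as the only one below 0, and 4 at 60 min.

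CLN3, the G1 cyclin that acts upstream of the others, stayed level until 7 min and then stepped up. In the wild type its centred log2 ratio was -0.03, -0.22, 0.53, 0.44 and 0.15 at 0, 7, 16, 30 and 60 min. On the arrays labelled delPPT1 it was 0.32, 0.30, 0.86, 0.76 and 0.54 at 0, 7, 15, 30 and 60 min. Within each strain the 15-16 min array was highest and the 7 min array lowest, and each value labelled delPPT1 lay above its wild type counterpart. The fitted change from 0 min was 0.55 ± 0.12 at 15-16 min (1.47-fold, limma adjusted p = 0.0245) and 0.46 ± 0.12 at 30 min (adjusted p = 0.0385). At 7 min the fitted difference from 0 min was -0.10 ± 0.12 (adjusted p = 0.735) and at 60 min 0.20 ± 0.12 (adjusted p = 0.318). Both calls were close to the threshold. The one at 15-16 min was lost without any of the 4 arrays of 0 and 15-16 min (0.52 to 0.59, adjusted p 0.0612 to 0.139), and the one at 30 min without any 1 of 8 arrays, all but the 15-16 min arrays (0.42 to 0.50, adjusted p 0.0586 to 0.189).

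CLN1, a G1 cyclin of the step called Start, climbed through every sampled time to 30 min and then came down. Wild type CLN1 was -0.32, -0.06, 0.52, 0.85 and 0.41 at the 5 times in order, and on the arrays labelled delPPT1 it was -0.56, 0.01, 0.60, 0.90 and 0.21. Both 0 min arrays lay below all later ones, and the 2 strains were within 0.24 of each other at every time. CLN1 was 1.0 ± 0.14 higher at 15-16 min (2.0-fold, adjusted p = 0.00195), 1.31 ± 0.14 higher at 30 min (2.48-fold, adjusted p = 0.000262) and 0.75 ± 0.14 at 60 min (1.68-fold, adjusted p = 0.00653). Its 7 min difference of 0.41 ± 0.14 did not pass (adjusted p = 0.167). The call at 60 min was lost without the wild type 60 min array or the 0 min array labelled delPPT1 (0.65 and 0.63, adjusted p 0.0623 and 0.0799).

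CLN2, the close relative of CLN1 with an overlapping role, was highest at the same time with a smaller change. Wild type CLN2 was 0.0035, 0.34, 0.85, 0.95 and 0.31, and on the arrays labelled delPPT1 it was -0.005, 0.26, 0.51, 0.69 and 0.05. The strains started level at 0 min, and from 15-16 min on the wild type arrays were the higher ones by 0.26 to 0.34. CLN2 was 0.68 ± 0.13 higher than at 0 min at 15-16 min (1.61-fold, adjusted p = 0.0131) and 0.82 ± 0.13 at 30 min (1.76-fold, adjusted p = 0.00352). At 60 min it stood at 0.18 ± 0.13 (adjusted p = 0.42), against 0.75 ± 0.14 for CLN1. The call at 15-16 min was lost without the wild type 0 min array (0.57, adjusted p = 0.128) or the wild type 16 min array (0.59, adjusted p = 0.1).

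CLB6, one of the cyclins that start DNA replication, was highest at 15-16 min in both strains. Wild type CLB6 was -0.17, 0.60, 1.44, 0.97 and 0.79, and on the arrays labelled delPPT1 it was -0.41, -0.27, 0.70, 0.58 and 0.04. Its wild type value was already 0.77 above that of 0 min at 7 min, where the array labelled delPPT1 stood 0.15 above its own 0 min array. CLB6 was 1.35 ± 0.17 higher at 15-16 min (2.56-fold, adjusted p = 0.00105), 1.07 ± 0.17 higher at 30 min (2.1-fold, adjusted p = 0.00307) and 0.70 ± 0.17 at 60 min (1.63-fold, adjusted p = 0.0241). At 7 min the fit gave 0.46 ± 0.17 (adjusted p = 0.217). The call at 60 min was lost without the wild type 0 min array or either 60 min array (0.48 to 0.80, adjusted p 0.0772 to 0.19).

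CLB5, the other replication cyclin and the main one of S phase, was higher from 15-16 min and stayed up. Wild type CLB5 was -0.72, -0.42, -0.07, 0.26 and 0.28, and on the arrays labelled delPPT1 it was -0.65, -0.38, 0.13, 0.14 and 0.08. Both 0 min arrays were the lowest of their strain, and between 30 and 60 min neither strain moved by more than 0.06. CLB5 was 0.71 ± 0.14 higher at 15-16 min (1.64-fold, adjusted p = 0.0128), 0.89 ± 0.14 higher at 30 min (1.85-fold, adjusted p = 0.00289) and 0.87 ± 0.14 at 60 min (1.83-fold, adjusted p = 0.00305). The call at 15-16 min was lost without either 0 min array or the 15 min array labelled delPPT1 (0.59 to 0.76, adjusted p 0.0713 to 0.104).

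CLB3 and CLB4, which act in spindle assembly, did not pass at any time. Wild type CLB3 lay between -0.22 and 0.09, and on the arrays labelled delPPT1 between -0.34 and -0.18. Its range over the 5 times was larger than that of 20.6% of the 4901 genes with complete values in the wild type and 4.47% in the strain labelled delPPT1. Its fitted differences from 0 min lay between 0.08 ± 0.13 and 0.21 ± 0.13 (adjusted p 0.488 to 0.753). CLB4 was -0.32, -0.67, -0.34, -0.02 and -0.35 in the wild type and -0.33, -0.24, -0.24, -0.16 and 0.24 on the arrays labelled delPPT1. It was lowest at 7 min and highest at 30 min in the wild type, and lowest at 0 min and highest at 60 min in the other strain, with fitted differences from 0 min between -0.13 ± 0.18 and 0.27 ± 0.18 (adjusted p 0.377 to 0.941).

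CLB2, the main mitotic cyclin, was above its 0 min value at 7 min and highest at 60 min. The lower values between them did not pass as a fall (step from 7 to 15-16 min -0.26 ± 0.13, adjusted p = 0.77). Wild type CLB2 was -0.89, 0.005, -0.43, -0.31 and 0.41, and on the arrays labelled delPPT1 it was -0.56, 0.06, -0.02, -0.04 and 0.60. Both 0 min arrays were lower than every later array of their strain, and both 60 min arrays were higher than every other array. CLB2 was 0.76 ± 0.13 higher at 7 min (1.69-fold, adjusted p = 0.014), 0.55 ± 0.13 higher at 30 min (1.46-fold, adjusted p = 0.0254) and 1.23 ± 0.13 at 60 min (2.34-fold, adjusted p = 0.0003). It was the one cyclin to pass at 7 min. The 15-16 min value of 0.50 ± 0.13 just missed the threshold (limma adjusted p = 0.0505). It passed without centring (adjusted p = 0.0388), with complete genes (adjusted p = 0.0388) and with robust moderation (adjusted p = 0.0485). It did not pass with quantile normalization (adjusted p = 0.0615) or with median and MAD scaling (0.40, adjusted p = 0.119). The call at 7 min was lost without either 0 min array or the wild type 7 min array (0.63 to 0.81, adjusted p 0.0718 to 0.189), and the one at 30 min without any array of 0 or 30 min (0.50 to 0.60, adjusted p 0.0992 to 0.144) and with median and MAD scaling (0.44, adjusted p = 0.0669).

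CLB1, the mitotic cyclin most like CLB2 in sequence and role, was below its 0 min value at 15-16 and 30 min in both strains, where CLB2 was above its own. Wild type CLB1 was 0.68, 0.72, 0.16, -0.19 and 0.51, and on the arrays labelled delPPT1 it was 1.02, 0.51, 0.17, 0.05 and 1.25. It was above the array median before the shift, lowest at 30 min in both strains, and had come back by 60 min. CLB1 fell by 0.91 ± 0.20 on the log2 scale by 30 min (1.88-fold, adjusted p = 0.0165). At 15-16 min it was at -0.68 ± 0.20 (adjusted p = 0.0765), and at 60 min at 0.03 ± 0.20 (adjusted p = 0.939). The residual SD of CLB1 in the fit (0.26) was the largest of the 9 genes, beside 0.06 to 0.21 for the others. The call at 30 min was lost without any array of 0 or 30 min (-0.99 to -0.84, adjusted p 0.0716 to 0.129) and with quantile normalization (-0.69, adjusted p = 0.103).

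The steps between successive times were compared next. From 7 to 15-16 min CLB6 stepped by 0.90 ± 0.17, CLN3 by 0.66 ± 0.12, CLN1 by 0.59 ± 0.14, CLB5 by 0.43 ± 0.14 and CLN2 by 0.39 ± 0.13, each positive in both strains. From 30 to 60 min CLB1 stepped by 0.95 ± 0.20 and CLB2 by 0.68 ± 0.13, while CLN2 stepped by -0.64 ± 0.13 and CLN1 by -0.56 ± 0.14, again with the same sign in both strains. None of these steps passed limma's adjusted threshold. The lowest adjusted p of the first step was 0.0591, for CLN3 and CLB6, and that of the last was 0.171, for CLB1, CLB2 and CLN2. Few genes of any kind passed a step: 0.464% from 7 to 15-16 min, 0.0516% from 15-16 to 30 min and 0.0516% from 30 to 60 min. At an unadjusted p under 0.05 the 3 steps held 5, 1 and 4 of the 9 cyclins, beside 7.13%, 8.93% and 10.1% of all genes. The first step passed for CLB6 with quantile normalization (adjusted p = 0.0314), and for CLB6 and CLN3 when only the 4901 genes with complete values were tested (adjusted p = 0.0373 and 0.0382).

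The order of the waves was then read within each strain, where each point is 1 array and no test is possible. In the wild type the highest value came at 7 min for CLB1 and CLB3, at 16 min for CLN3 and CLB6, at 30 min for CLN1, CLN2 and CLB4, and at 60 min for CLB2 and CLB5. In the strain labelled delPPT1 it came at 15 min for CLN3 and CLB6, at 30 min for CLN1, CLN2 and CLB5, and at 60 min for CLB1, CLB2, CLB3 and CLB4. CLN1, CLN2, CLN3, CLB2 and CLB6 thus were highest at the same time in both strains, 5 of 9, where 38.3% of the 4901 genes with complete values were. The lowest value, which would be the highest if the ratio runs the other way, came at the same time in both strains for 8 of 9 cyclins, all but CLB4, and for 32.8% of the genes. The heat map of changes from 0 min shows the order in both strains.

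**Figure D3:**
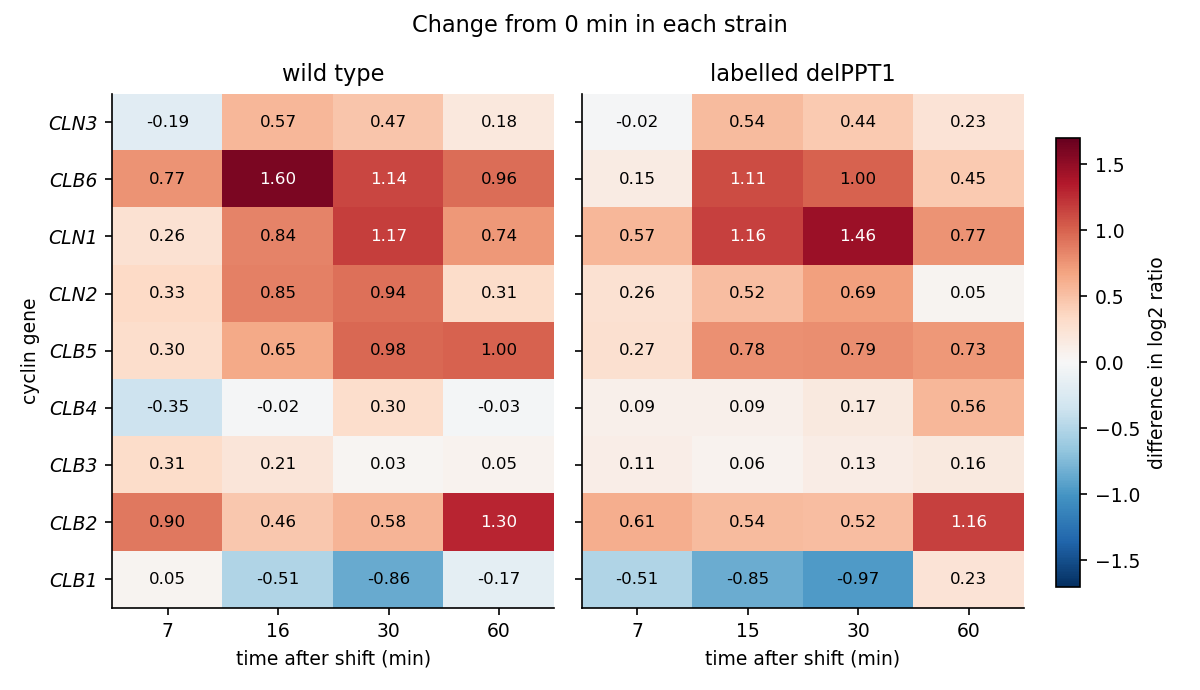
Difference in log2 ratio between each later array and the 0 min array of the same strain (colour and printed value), by cyclin gene (vertical axis) and minutes after the shift (horizontal axis), wild type left and the strain labelled delPPT1 right. CLB6 is darkest at 16 min in the wild type (1.60) and CLN1 at 30 min in the strain labelled delPPT1 (1.46), while CLB1 is below 0 at 15-16 and 30 min in both.

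Neighbouring times in this order were not separated by a test. The step from 15-16 to 30 min over both strains was 0.31 ± 0.14 for CLN1 (limma adjusted p = 0.55), 0.13 ± 0.13 for CLN2 (adjusted p = 0.794), -0.09 ± 0.12 for CLN3 (adjusted p = 0.856) and -0.29 ± 0.17 for CLB6 (adjusted p = 0.666). Single arrays led by unequal amounts. The highest value exceeded the next highest by 0.33 and 0.30 for CLN1, by 0.40 and 0.55 for CLB2 and by 0.46 and 0.11 for CLB6, in the wild type and the strain labelled delPPT1. For CLN2 the leads were 0.09 and 0.18, for CLN3 0.09 and 0.10 and for CLB5 0.02 and 0.01. Quantile normalization and median and MAD scaling each moved the highest value of CLB5 in the strain labelled delPPT1 to 15 min.

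Averaged over the 5 matched pairs, CLB6 was lower and CLN3 higher on the arrays labelled delPPT1 than on the wild type arrays. CLB6 differed by -0.60 ± 0.11 (1.52-fold, limma adjusted p = 0.0201), and was lower in 5 of 5 pairs, by 0.25, 0.87, 0.74, 0.39 and 0.75 at 0, 7, 15-16, 30 and 60 min. CLN3 differed by 0.38 ± 0.08 (1.3-fold, adjusted p = 0.0318), and was higher in 5 of 5 pairs, by 0.35, 0.52, 0.32, 0.32 and 0.40. Of all genes tested 3.8% passed, 1.73% higher and 2.06% lower, beside 2 of 9 cyclins, 1 in each direction. Without the time term neither cyclin passed (adjusted p = 0.313 for CLN3 and 0.373 for CLB6), nor did any other gene. The call of CLN3 was lost in each of the 10 fits that left out 1 array (0.35 to 0.40, adjusted p 0.0587 to 0.139), and that of CLB6 without any array of 7, 15-16 or 60 min (-0.57 to -0.53, adjusted p 0.0574 to 0.087). Leaving out either array of a time gave the same strain difference, so these 10 fits hold only 5 distinct results. The labels do not say whether each time had a culture of its own, so the p-values speak for the spread among these 10 arrays, which may be technical.

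The other 7 cyclins did not pass between the strains. CLB2 was higher in 5 of 5 pairs (0.25 ± 0.08, adjusted p = 0.108), CLN2 lower in 5 of 5 (-0.19 ± 0.08, adjusted p = 0.211) and CLB3 lower in 5 of 5 (-0.15 ± 0.08, adjusted p = 0.322). CLB1 was higher in 4 pairs (0.22 ± 0.13, adjusted p = 0.324), with its widest gap, 0.74, at 60 min, and CLB4 in 3 (0.19 ± 0.11, adjusted p = 0.34). CLN1 was at -0.05 ± 0.09 (adjusted p = 0.765). CLB5 had the same mean in both strains, -0.13, and an SE of 0.09. The strain difference of each pair is plotted for the 9 genes.

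**Figure D4:**
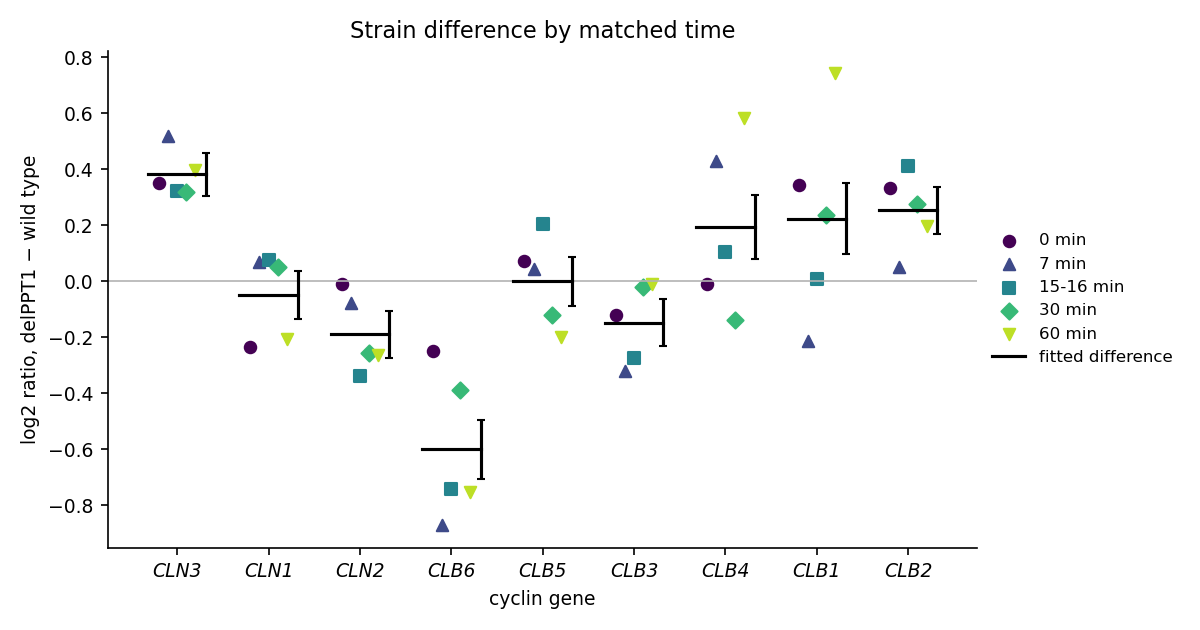
Log2 ratio on the array labelled delPPT1 minus that on the wild type array of the same time (vertical axis), with 1 symbol per time, for each cyclin gene (horizontal axis). The black line is the fitted difference with its standard error at its right end. All 5 points lie above 0 for CLN3 and CLB2 and below 0 for CLB6, CLN2 and CLB3.

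Whether the response itself differed between strains was tested by the strain difference after the shift minus that at 0 min. No cyclin passed in limma, also not at an unadjusted p under 0.05, and 0 of 5792 genes passed (0.0%), with 4.71% at an unadjusted p under 0.05. The lowest p among the cyclins was that of CLB6 (-0.44 ± 0.24, unadjusted p = 0.0976, adjusted p = 0.993). For CLN3 the value was 0.04 ± 0.20, for CLN1 0.23 ± 0.21 and for CLB2 -0.10 ± 0.22. Each strain had 1 array before the shift, which leaves these errors wide.

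Related cyclins did not move alike in every case. Over the 10 arrays, which share strain and time, CLN1 and CLN2 correlated with r = 0.847, CLB5 and CLB6 with r = 0.664, CLB1 and CLB2 with r = 0.211 and CLB3 and CLB4 with r = -0.446. CLN1 also followed CLB5 (r = 0.897), and CLN2 followed CLB6 (r = 0.852), while CLB1 ran against CLN2 (r = -0.900) and CLN1 (r = -0.778). From 0 min to 30 min the log2 ratio of CLB2 changed by 1.44 more than that of CLB1 in the wild type and by 1.49 more in the strain labelled delPPT1. By 60 min this gap was 1.46 in the wild type and 0.93 in the other strain. CLN1 changed by 0.23 more than CLN2 by 30 min in the wild type and by 0.76 more in the strain labelled delPPT1. Genes alike in sequence can share signal on an array, which was not tested here. Values within a pair of related cyclins are therefore uncertain one against the other. The gene next to CLB1 in the RefSeq table of protein-coding genes (assembly R64) is CLB6, and the gene next to CLB2 is CLB5. CLB6 changed by 2.0 more than CLB1 by 30 min in the wild type and by 1.97 more in the strain labelled delPPT1, and r between them was -0.687, so these neighbours moved apart.

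The genes most like each cyclin were ranked by Pearson r over the 10 centred arrays, among the other 4900 genes with complete values, as a description. CLN1 was most like POL30, the replication clamp PCNA (r = 0.971), followed by GWT1 (r = 0.954) and RTT107 (r = 0.942). POL30 went from -0.56 at 0 min to 0.90 at 30 min in the wild type and from -0.87 to 0.64 in the strain labelled delPPT1. CLN2 was most like RNR1, the large subunit of ribonucleotide reductase (r = 0.956), then OGG1 (r = 0.930) and NCP1 (r = 0.924). CLB6 was most like MLO50 (r = 0.962), IRR1, a cohesin subunit (r = 0.961), and POL31, a subunit of DNA polymerase delta (r = 0.958). CLB5 was most like ACM1, an inhibitor of the anaphase-promoting complex, and CTA1, the peroxisomal catalase (both r = 0.951), then YDL009C (r = 0.937).

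CLB2 was most like DSN1, a kinetochore subunit (r = 0.952), CHS2, the chitin synthase of the septum (r = 0.932), and CDC5, the polo kinase (r = 0.932). DSN1 was -0.48, -0.06, -0.35, -0.14 and 0.16 in the wild type and -0.42, -0.11, -0.16, -0.23 and 0.22 on the arrays labelled delPPT1, with the rise at 7 min and the maximum at 60 min that CLB2 had. For CLB1 the genes were BDS1 (r = 0.919), the mitochondrial ribosomal protein gene MRPL1 (r = 0.915) and RRG9 (r = 0.896), and CLB2 ranked only 1592 for likeness to CLB1. For CLN3 they were RTN1 (r = 0.898), YDR133C (r = 0.896) and FAA3 (r = 0.886), for CLB3 RPT2 (r = 0.924), YOL134C (r = 0.909) and CEG1 (r = 0.907), and for CLB4 ERP6 (r = 0.919), GDT1 (r = 0.911) and TIM21 (r = 0.908). These are the highest of 4900 values each, and CLB3, which passed no test, had a best r of 0.924.

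Among the genes that control the cyclins, the counts below stand beside 0.447%, 1.56%, 3.56% and 3.97% of all genes called higher at the 4 times. The shares of all genes called lower were 2.58%, 5.62%, 7.8% and 8.38%. Of the kinase CDC28, its subunit CKS1 and the inhibitors SIC1, FAR1 and SWE1, 0 of 5 passed in limma at any time, and 0, 2, 3 and 0 had an unadjusted p under 0.05 at the 4 times. Without centring 1 of 5 passed at 15-16 min and at 30 min. The nearest were CDC28 at 15-16 min (0.49 ± 0.13, adjusted p = 0.0594) and SWE1, the kinase that holds Cdc28 back before mitosis, at 30 min (0.47 ± 0.15, adjusted p = 0.0724). Of 7 regulators of G1 transcription, 2 rose at 30 min and at 60 min: SWI6, the shared subunit of SBF and MBF (0.59 ± 0.13 and 0.54 ± 0.13, adjusted p = 0.02 and 0.0284), and NRM1, a repressor of MBF targets (0.74 ± 0.18 and 0.70 ± 0.18, adjusted p = 0.0264 and 0.0323). All 4 of these calls were lost with median and MAD scaling. The median change of the 7 was 0.45 at 15-16 min and 0.42 at 30 min. Of 8 genes of cyclin degradation, 1 fell at 60 min, the ubiquitin-conjugating enzyme gene CDC34 (-0.80 ± 0.19, adjusted p = 0.0286). CDC34 had no value on the 60 min array labelled delPPT1. Its call was lost without either 0 min array, with quantile normalization and with median and MAD scaling. CDC20, an activator of the anaphase-promoting complex, was at 0.30 ± 0.15 at 60 min (adjusted p = 0.227).

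Of the 7 measured regulators of mitotic transcription, FKH1, a forkhead factor, rose at all 4 times, from 0.85 ± 0.12 at 7 min (adjusted p = 0.00505) to 1.16 ± 0.12 at 30 min and 1.13 ± 0.12 at 60 min (adjusted p = 0.000286 and 0.00031). SWI5, a factor of late mitosis (0.47 ± 0.12, adjusted p = 0.0342), and YHP1, a repressor of Mcm1 targets (0.63 ± 0.13, adjusted p = 0.0122), rose at 60 min. FKH2, NDD1 and MCM1, the genes of the CLB2 factors named at the start, lay between -0.27 and 0.25 at every time and did not pass. Of 7 measured cyclins of the kinase Pho85, PCL5, a cyclin for the turnover of Gcn4, was at -1.36 ± 0.15 at 15-16 min, -1.60 ± 0.15 at 30 min and -1.75 ± 0.15 at 60 min (adjusted p = 0.000458, 0.00012 and 7.24e-05). PCL7 was at -0.47 ± 0.13 at 30 min (adjusted p = 0.0402), a call lost without centring, with quantile normalization and with median and MAD scaling. The other 5 did not pass, among them PCL2, the one measured here with a G1 role (0.03 ± 0.19 at 30 min, adjusted p = 0.95).

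Other genes of known phase were read on the same arrays, beside the same shares of all genes. Of 9 targets of SBF and MBF, 3, 5 and 4 rose at 15-16, 30 and 60 min, and 0 fell. TOS4 (1.26 ± 0.13, adjusted p = 0.000202) and RFA1, a subunit of the single-strand DNA-binding complex (0.87 ± 0.13, adjusted p = 0.00214), were among them at 30 min, beside POL30 and RNR1. The median of the list was highest at 30 min in both strains, at 0.72 and 0.59. Of 8 histone genes, which are switched on in S phase, 2 fell at 15-16 min, HTA1 (-0.51 ± 0.12, adjusted p = 0.033) and HTA2 (-0.61 ± 0.14, adjusted p = 0.0265), and 2 rose at 60 min, HTA1 (0.45 ± 0.12, adjusted p = 0.0413) and HHF1 (0.48 ± 0.13, adjusted p = 0.0377). With quantile normalization 0 of 8 passed at either time, and both calls at 60 min were also lost with median and MAD scaling. The histone median was lowest at 16 min in the wild type (-0.47) and at 7 min in the strain labelled delPPT1 (-0.57), and highest at 60 min in both (0.04 and 0.24).

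Of 6 measured genes of the CLB2 cluster, 3 rose at 7 min and 3 at 60 min, against 1 at 15-16 min and 1 at 30 min. These were CDC5 (1.01 ± 0.14 and 1.09 ± 0.14, adjusted p = 0.00505 and 0.00111 at 7 and 60 min), BUD4, a bud neck protein (0.93 ± 0.20 and 0.96 ± 0.20, adjusted p = 0.0379 and 0.013), and HST3, a histone deacetylase (0.63 ± 0.12 and 0.78 ± 0.12, adjusted p = 0.0264 and 0.00334). KIN3 fell at 30 min (-0.58 ± 0.14, adjusted p = 0.0289). None of the 6 passed a step between successive times from 7 to 60 min. With quantile normalization 1 of 6 rose at 7 min, and KIN3 did not pass. The calls of KIN3 and of BUD4 at 7 min were also lost with median and MAD scaling. For these 6 genes the wild type medians were 0.41, 0.01 and 0.39 at 7, 30 and 60 min, and those of the strain labelled delPPT1 were 0.38, 0.12 and 0.45. Of 8 genes of the M/G1 boundary, 2 rose at 15-16 min, where the median change of the 8 was 0.094. They were ASH1, a repressor of mating type switching (0.76 ± 0.15, adjusted p = 0.0136), and CDC6, the licensing factor (0.72 ± 0.13, adjusted p = 0.00948). At 30 min CDC6 and DSE1 rose and RME1, a regulator of meiosis, fell (-0.79 ± 0.21, adjusted p = 0.0385), and at 60 min CDC6 and DSE1 rose and PIR1, a cell wall protein gene, fell (-0.54 ± 0.15, adjusted p = 0.0465). The calls of RME1 and PIR1 were lost without centring, with quantile normalization and with median and MAD scaling. Both calls of DSE1 were lost with median and MAD scaling.

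Over these 9 lists 48 calls were made at the 4 times, and 34 of them were lost when some 1 array was left out. The 14 that held in every such fit were those of TOS4 and PCL5 at 15-16, 30 and 60 min, RNR1 at 15-16 and 30 min, POL30 and RFA1 at 30 min, FKH1 at 30 and 60 min, and CDC5 and HST3 at 60 min. The list medians are plotted by array.

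**Figure D5:**
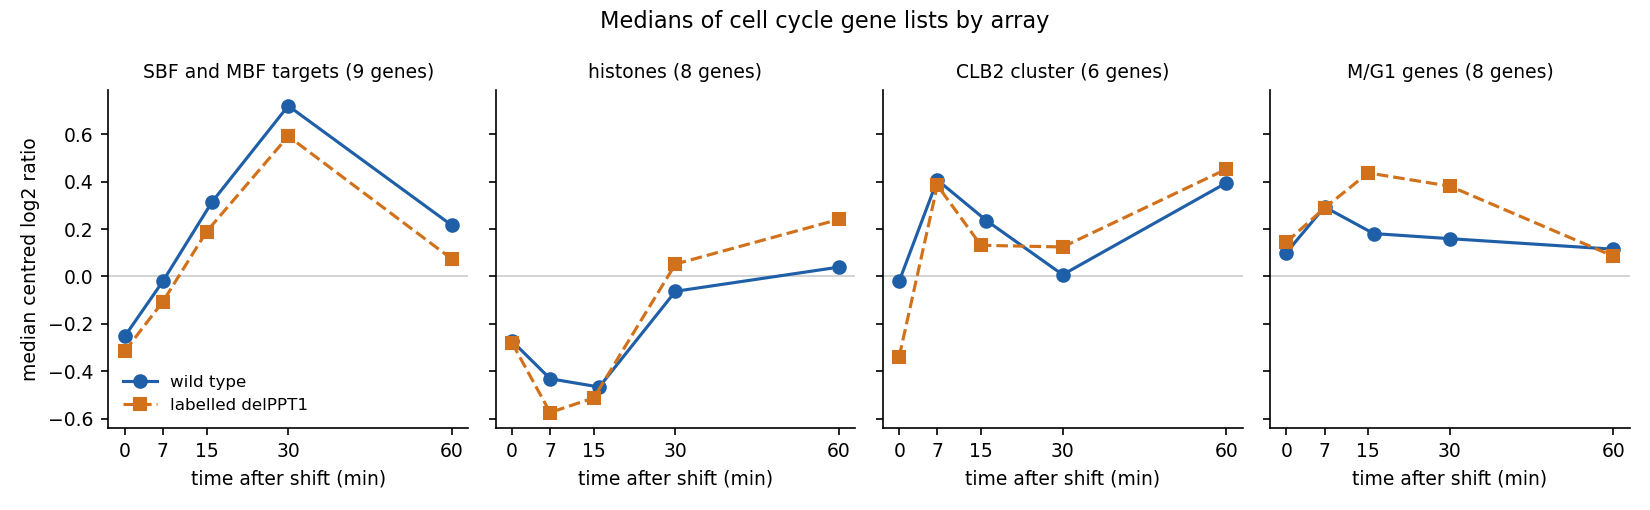
Median centred log2 ratio of 4 lists of cell cycle genes (vertical axis) against minutes after the shift (horizontal axis), wild type as blue circles and the strain labelled delPPT1 as orange squares, with 1 array per point. The targets of SBF and MBF are highest at 30 min, the histones are lowest at 7 to 16 min, and the CLB2 cluster is high at 7 and 60 min in both strains.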

How the data were processed

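Total RNA of 10 yeast samples was hybridised against a reference on 2-colour arrays, per the labels. The authors deposited a single log ratio for each gene on each array, read here as log2. Its base, the dyes, the platform, the background correction and the normalization are not stated in the labels or the files. Another base would scale every log2 value alike and change no call. Gene symbols came from a RefSeq table of assembly R64, and no coordinates are given because no build is named for the arrays. No cyclin sequence is printed.

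The median of each array was subtracted. With limma 3.58.1 (R 4.3.3), a linear model fitted time point and strain to all 10 arrays, with 4 residual and 5.80 prior degrees of freedom, and a second fit added the strain difference after the shift (3 residual degrees of freedom). P-values were adjusted over all genes by Benjamini-Hochberg, with a threshold of 0.05. The fits were tested on simulated data. Missing values were left missing and no sample was imputed. Precision is set by how few arrays there are, and no depth applies.

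The cyclins, the other lists and the tests were chosen with earlier results of these data known. The 9 cyclins are named, the 3 genes most like each, and, of the lists, genes that passed at some time; CDC28, SWE1, CDC20, PCL2, FKH2, NDD1 and MCM1 were chosen after their values were seen. PCL1, PCL8, PCL9, ALK1 and IQG1 were not analysed here. Leaving out each array for the list genes was added after the data were seen. The alternatives were no centring, quantile normalization, median and MAD scaling, complete genes, robust moderation, each array left out and, for the strain difference, no time term.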

Additional observations from a re-analysis of the deposited data

How the results depend on the processing

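Of 1341 cyclin values recomputed under an alternative, 1234 kept their direction and their side of the threshold, 71 were no longer called, 8 became called and 28 changed sign. None of the 28 was called in either fit. In many of the 1341 the estimate could not change, as with robust moderation, complete genes or a left-out array outside the comparison. The F test has no direction to keep. Most cyclin values were not called in the main fit, and only those called there could be among the 71. The number of cyclins called ranged, when 1 array was left out, from 0 to 1 at 7 min, 2 to 6 at 15-16 min, 4 to 7 at 30 min, 2 to 4 at 60 min, 3 to 7 for any change and 0 to 1 for the strain difference, and was 0 throughout for the steps and the interaction. The step from 7 to 15-16 min called 1 cyclin with quantile normalization and 2 with complete genes. Without the time term 0 cyclins and 0 genes passed between strains. Quantile normalization and median and MAD scaling each moved the highest value of CLB5 in the strain labelled delPPT1 from 30 to 15 min. The strain difference was matched by time in its main form. No other pairing was possible because the labels give no replicate numbers. In addition, the interaction could not be fitted without a 0 min array. The cause of these shifts was not tested.

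The values that changed sign had these ranges with 1 array left out. Against 0 min, CLB1 ranged from -0.51 to 0.041 and CLB4 from -0.28 to 0.016 at 7 min, CLB4 from -0.094 to 0.16 at 15-16 min, and CLB1 from -0.29 to 0.36 at 60 min. In the step to 15-16 min CLB3 ranged from -0.18 to 0.030. In the step to 30 min CLB2 ranged from -0.049 to 0.15, CLB3 from -0.13 to 0.028 and CLB4 from -0.0095 to 0.41. In the step to 60 min CLB3 ranged from -0.060 to 0.11, CLB4 from -0.21 to 0.28 and CLB5 from -0.14 to 0.11. In the interaction CLN3 ranged from -0.0048 to 0.061 and CLB3 from -0.086 to 0.018. Under other alternatives CLB4 was at -0.021 at 15-16 min and CLB2 at 0.0072 in the interaction with median and MAD scaling, CLB5 at 0.001 in the step to 60 min without centring, and CLB1 at 0.044 in the interaction with quantile normalization.

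Over all genes the calls at 7, 15-16, 30 and 60 min numbered 176, 418, 661 and 719. They ranged from 44 to 164, 162 to 392, 265 to 728 and 273 to 780 with 1 array left out, and from 53 to 176, 208 to 427, 437 to 685 and 451 to 775 under the other alternatives. For any change 522 passed, with ranges of 212 to 515 and 379 to 555. For the strain 221 passed, with ranges of 34 to 96 and 0 to 351.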

Other observations

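The values of CLN2 were written with at most 2 decimals on every array, as were those of 280 genes on the 9 arrays other than the wild type 0 min array. The other 8 cyclins carried at least 3 decimals, and CLB1, CLB2, CLB4 and CLB5 carried 4 on the wild type 0 min array, where 2498 values did. The sources used here do not say how spots were combined, and whether the number of spots behind CLN2 differs was not tested.

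The range over time placed most cyclins high among all genes. CLB6 in the wild type spanned 1.60 on the log2 scale, more than 98.2% of the genes with complete values, and CLN1 in the strain labelled delPPT1 spanned 1.46, more than 97.4%.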
